A study of Oryza sativa Japonica Group with 14 samples.

Results

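Across all rice meristem libraries of this study, 715 genomic regions had a peak in every H3K4me3 list and in every H3K27me3 list. They were found by merging the peaks of the 8 deposited lists wherever peaks overlapped by at least 1 bp, which gave 35905 regions, and keeping those held by all 8 lists. The regions were therefore selected on measured values, and their presence in every list is a description with no test. They are called dual-mark regions here. Of the remaining regions, 13548 were held by all 4 H3K4me3 lists and by no H3K27me3 list, and 2994 by all 4 H3K27me3 lists and by no H3K4me3 list.

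H3K4me3 is a histone methylation placed around the start of transcribed genes, and H3K27me3 is the repressive methylation placed by Polycomb complexes, often over whole silent genes. Chromatin that carries both is called bivalent and is best known from developmental regulator genes, which it is described as keeping silent but ready for use. Meristems are the stem cell tissues at the growing points of a plant. In bulk tissue, peaks of both marks at a place can come from the same nucleosomes, from different alleles or from different cells, and separate immunoprecipitations do not tell these apart. Likewise, fewer cells carrying a mark and less of the mark per cell cannot be told apart.

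All plants were of the DongJin background of japonica rice and were grown in the field. Wild-type (WT) shoot apical meristem (SAM), which makes leaves, was collected at the 6 to 7 leaf stage with apices under 0.5 mm, and inflorescence meristem (IM), which makes the panicle, at the 10 to 12 leaf stage with apices of 1 to 2 mm. The IM came from WT, from lines with RNA interference against SDG711 and from 1 T-DNA insertion line in JMJ703. SDG711 is a Polycomb H3K27 methyltransferase, which RNA interference lowers rather than removes, and JMJ703 is an H3K4 demethylase. Apices were hand-dissected from about 400 plants and so pool many plants and every cell type of the apex. WT and jmj703 IM were harvested on 21 to 24 June and SDG711 RNAi IM on 17 to 19 June. Each tissue, genotype and mark had 1 library, so no difference below was tested against a spread between replicates, and the 6 RNA samples were not analysed here.

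The H3K4me3 libraries held 13703302 tags in WT SAM and, among the IM samples, 18452560 in WT, 17941001 in SDG711 RNAi and 4869161 in jmj703. The H3K27me3 libraries held 16321456, 22887617, 10502005 and 14337383 tags in the same order, so the jmj703 library was the shallowest for H3K4me3 and the SDG711 RNAi library for H3K27me3. The peaks in dual-mark regions made up 3.30 to 3.71% of each H3K4me3 list and 6.26 to 9.23% of each H3K27me3 list. Positions are those of the deposited files, and no source used here gives their genome build. For that reason no gene is named, and the tissues could not be checked against marker genes.

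Membership was decided by weak peaks in many regions. The weakest of the 8 peaks had a median deposited −log10 p of 8.72, at a cutoff of 5. It was under 10 in 427 of the 715 regions and under 6 in 118. Just inside the rule lay chromosome 9 from 20348694 to 20350681, where the SDG711 RNAi H3K27me3 peak had a −log10 p of 5.002. Another 909 regions were held by 7 lists. The missing list was SDG711 RNAi H3K27me3 in 354 of them, WT SAM H3K27me3 in 206, jmj703 H3K4me3 in 189, WT SAM H3K4me3 in 87, WT IM H3K27me3 in 24, jmj703 H3K27me3 in 21, SDG711 RNAi H3K4me3 in 15 and WT IM H3K4me3 in 13. Just outside the rule, chromosome 7 from 22873847 to 22876086 lacked only SDG711 RNAi H3K27me3, and its other 7 peaks had −log10 p values from 24.2 to 123. Similarly, chromosome 1 from 40695361 to 40700267 lacked only WT SAM H3K27me3, with values from 24.0 to 180 in the other lists.

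Because the rule asks for a peak of every list, a region that lost a mark entirely in the RNAi or mutant plants could not be a member. The ratios given below are thus limited to regions in which each mark stayed above the peak cutoff.

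Dual-mark regions occurred on all 12 chromosomes, from 1.49% of the regions of chromosome 9 to 2.77% of those of chromosome 8. The median gap between neighbours was 305 kb, and 71 (9.93%) had another within 20 kb. Within 1 Mb on either side, WT IM had a median of 65.0 H3K4me3 peaks per Mb around dual-mark regions and 66.0 around all regions. For H3K27me3 these medians were 31.0 and 31.5 peaks per Mb, so the surroundings of the 715 regions taken as 1 set were close to those of all regions.

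The label "both marks" held for the region and not for every base in it. Dual-mark regions had a median length of 3816 bp (quartiles 2796 and 5376 bp, range 837 to 12530 bp). Only 396 (55.4%, 95% Wilson interval 51.7 to 59.0%) contained a base under a peak of all 8 lists, and the longest such run had a median of 911 bp. The other 319 were joined through peaks that did not all overlap. A peak of one mark directly overlapped a peak of the other in 518 regions in WT SAM and, in IM, 622 in WT, 597 in SDG711 RNAi and 551 in jmj703. The marks overlapped in all 4 tissues and genotypes in 431 regions (60.3%, interval 56.6 to 63.8%) and in none of them in 28. All intervals cover counting error over regions only.

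By the distance between the summits of both marks, some regions had the marks on top of each other, some had them side by side and others fitted neither. The median distance was 659 bp in WT SAM and, among the IM samples, 1061 bp in WT, 1156 bp in SDG711 RNAi and 940 bp in jmj703. It hides an uneven distribution. Summits lay at most 100 bp apart in 198, 156, 106 and 156 regions in that order, and at least 1000 bp apart in 312, 373, 393 and 346. Between 400 and 500 bp lay 14 to 17 regions per tissue and genotype. These ranges differ in width. From 300 to 400 bp there were 25, 18, 33 and 30 regions, and in the wider range from 1000 to 1500 bp 82, 111, 141 and 123. The range from 500 to 750 bp held 23, 28, 38 and 26, so the sparse stretch ran past 500 bp. The limits used here were chosen after the distances were seen and are a convention. A region was called together where the distance was at most 300 bp in all 4 tissues and genotypes (108 regions). It was called apart where the distance was at least 500 bp in all 4 (324) and mixed otherwise (283).

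**Figure D1:**
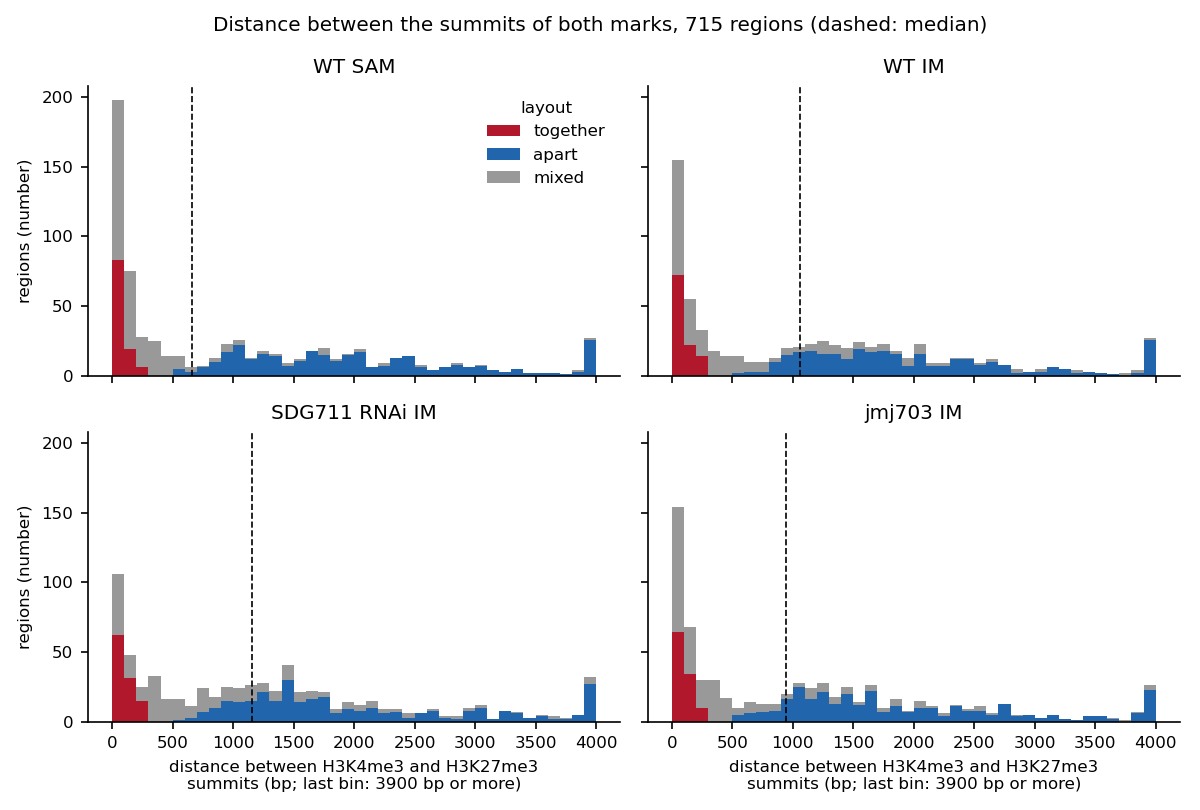
Number of dual-mark regions (vertical axis) by distance between the H3K4me3 and H3K27me3 summits in bp (horizontal axis), in 1 panel for each tissue and genotype and coloured by layout. A tall column at most 100 bp wide stands in each panel, with 198 regions in WT SAM and 106 in SDG711 RNAi IM, and a broad hump follows beyond 750 bp; dashed lines mark the medians.

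Regions with the marks together were short, and the peaks coincided almost wholly. Their median length was 2137 bp, against 4836 bp for apart regions. Within 1 Mb on either side of together regions, WT IM had medians of 55.75 H3K4me3 and 28.5 H3K27me3 peaks per Mb. Around apart regions these were 69.5 and 31.5, and around mixed regions 64.5 and 31.5. All 108 contained a base under all 8 lists. In WT IM the median H3K4me3 peak length was 1535 bp and the median H3K27me3 peak length 1536 bp, with a median of 95.7% of the H3K4me3 sequence lying under H3K27me3. Their H3K27me3 peaks ranked high in their own lists by deposited fold enrichment, and less so by tags per kb. The median percentile by deposited fold enrichment was 84.3 in WT SAM and, in IM, 90.5 in WT, 77.7 in SDG711 RNAi and 92.4 in jmj703. The corresponding H3K4me3 percentiles were 58.5, 42.3, 46.7 and 36.5. In tags per kb scaled to depth, the median H3K27me3 values of together regions were 6.97, 6.77, 7.66 and 8.14 in the same order. Over all regions held by the list the medians were 6.41, 5.79, 7.72 and 6.58, and the upper quartiles 7.94, 7.21, 9.70 and 8.21.

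In most apart regions, a narrower H3K4me3 peak sat at the side of a longer H3K27me3 domain. H3K27me3 was the longer in 256 of the 324 in WT SAM and, in IM, 272 in WT, 230 in SDG711 RNAi and 301 in jmj703. Peaks of both marks overlapped directly in 138, 243, 226 and 174 of them in the same order. The median H3K27me3 length in WT IM was 3047 bp and that of H3K4me3 1601 bp, and a median of 10.5% of the H3K4me3 sequence lay under H3K27me3. The H3K4me3 summit kept to the same side of the H3K27me3 summit in all 4 tissues and genotypes in 310 of the 324 regions. It was at the higher coordinate in 154 of these and at the lower coordinate in 156. The direction of transcription was not read, so this is a position on the chromosome only.

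H3K4me3 summits stayed in place more than H3K27me3 summits. Over the 4 libraries of a mark, the summit of H3K4me3 moved within a median of 258 bp and that of H3K27me3 within 673 bp. In apart regions these medians were 191 and 811 bp, in mixed regions 408 and 891 bp and in together regions 150 and 159 bp. Together regions were chosen for summits near each other, so like values for both marks there follow in part from the choice. From WT SAM to WT IM, 85 of the 302 regions with summits within 300 bp changed to 500 bp or more (28.1%), and 24 of 375 changed the opposite way (6.40%). In those 85, the H3K27me3 summit moved by a median of 984 bp and the H3K4me3 summit by 299 bp. From WT IM to SDG711 RNAi IM, 63 of 244 changed to 500 bp or more (25.8%) and 17 of 440 changed the opposite way (3.86%). From WT IM to jmj703 IM these shares were near each other. There, 20 of 244 moved apart (8.20%) and 43 of 440 moved together (9.77%). The H3K27me3 domains were longer in IM. The median covered length in dual-mark regions was 1889 bp in WT SAM and, among the IM samples, 2555 bp in WT, 2206 bp in SDG711 RNAi and 2473 bp in jmj703. The median length ratio from WT SAM to WT IM was 1.23 in dual-mark regions and 1.22 over all regions held by both lists, and the WT IM library was also the deeper.

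The longest stretch under all 8 lists ran for 4535 bp in the region on chromosome 1 from 16909578 to 16915517. H3K4me3 peaks there held 2104 tags in WT SAM and, in IM, 2060 in WT, 1798 in SDG711 RNAi and 870 in jmj703. H3K27me3 peaks held 2139, 2382, 1636 and 1746 tags. The peaks of both marks had nearly the same borders and their summits lay 25 to 75 bp apart in each library pair. The next longest, on chromosome 3 from 19571403 to 19576365, had a run of 3737 bp and summits 13 to 64 bp apart. The run was 3558 bp on chromosome 8 from 22322330 to 22328029, where the summits lay 89 to 127 bp apart in 3 of the pairs and 1888 bp apart in SDG711 RNAi IM. On chromosome 5, a run of 3391 bp lay in the region from 404827 to 408853 and one of 3044 bp in that from 29886513 to 29892350.

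At the other end, the summits were farthest apart on chromosome 8 from 26840807 to 26850861. The distance there was 5541 bp in WT SAM and, among the IM samples, 5555 bp in WT, 5894 bp in SDG711 RNAi and 5636 bp in jmj703. H3K4me3 held 127, 491, 565 and 153 tags, and H3K27me3 held 738, 1373, 1010 and 882 tags, in the same order. No peak of one mark overlapped a peak of the other except in WT IM, where the H3K27me3 domain reached the H3K4me3 peak by 31 bp. The next were chromosome 1 from 38650270 to 38658154, with distances from 5157 to 5661 bp, and chromosome 11 from 5143264 to 5152516, with 4931 to 5691 bp. The longest dual-mark regions, of 12530 bp on chromosome 1 from 26821299 to 26833828, 12487 bp on chromosome 1 from 31694194 to 31706680 and 11296 bp on chromosome 7 from 14364279 to 14375574, contained no base under all 8 lists.

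**Figure D2:**
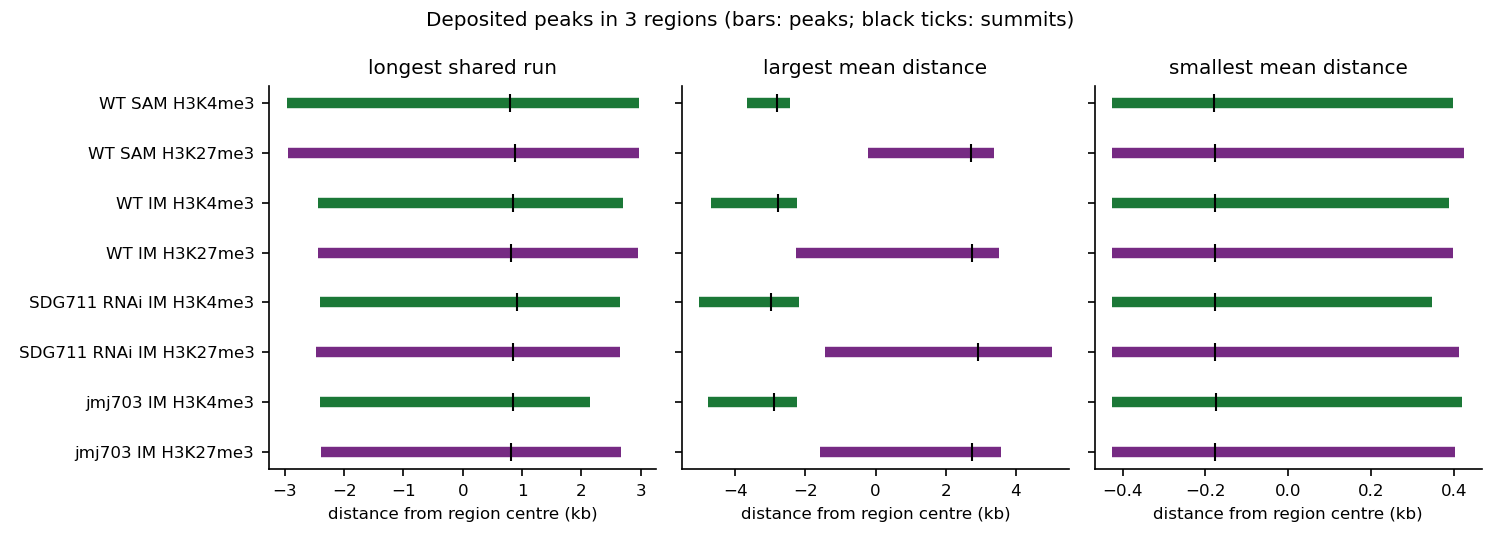
Deposited peaks of the 8 lists (rows; H3K4me3 green, H3K27me3 purple, black ticks for summits) in 3 regions, by distance from the centre of the region in kb. Peaks coincide along the region with the longest shared run (4535 bp) and at the chromosome 2 start, where summits lie at most 1 bp apart, whereas H3K4me3 and H3K27me3 lie side by side where the mean distance is largest.

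The strength of each mark was expressed as a tag density, the tags in its peaks per kb of peak and per 1000000 tags of the library. The median H3K4me3 density was 6.99 in WT SAM and, in IM, 8.51 in WT, 8.48 in SDG711 RNAi and 11.7 in jmj703. The median H3K27me3 density was 7.21, 7.10, 8.61 and 8.15 in the same order. By the deposited p, the H3K4me3 peaks were middling in their lists, with median percentiles from 46.7 to 51.6, and the H3K27me3 peaks were strong, with median percentiles from 66.7 to 78.2. Strong H3K27me3 peaks were not particular to dual-mark regions. In the regions held by all 4 H3K27me3 lists and no H3K4me3 list, these medians ran from 65.0 to 75.6. The rule chose the regions by their peaks, so these ranks are a description.

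The densities of both marks were inversely related over all regions with both marks but not over the 715 dual-mark regions taken as 1 set. With every region of a layout kept, Pearson's r in WT IM and SDG711 RNAi IM was negative in the mixed layout alone. Spearman's rho there was negative in both the mixed and the together layout. Across all regions with both marks in a tissue, Pearson's r of the log2 densities was −0.28 in WT SAM (n = 4399). Among the IM samples it was −0.43 in WT (n = 3081), −0.21 in SDG711 RNAi (n = 1832) and −0.29 in jmj703 (n = 2933). In the 715 dual-mark regions it was 0.26, 0.05, 0.03 and 0.25. Without the 5 regions at chromosome starts described next it was 0.19, 0.02, −0.01 and 0.12. Spearman's rho over the 715 was close to 0 in each, at 0.09, 0.01, −0.02 and 0.09, where all regions with both marks had −0.34, −0.47, −0.23 and −0.36. In the 283 mixed regions Pearson's r was 0.09 in WT SAM and, in IM, −0.19 in WT, −0.14 in SDG711 RNAi and 0.05 in jmj703, with rho of −0.06, −0.21, −0.16 and −0.02. In the 108 together regions rho was 0.29, −0.02, −0.11 and 0.19. Without the chromosome starts, rho in together regions was 0.18, −0.12, −0.22 and 0.07, and Pearson's r was 0.43, 0.0054, −0.06 and 0.20. These values are across regions of the same libraries, which are not independent, and a lower limit on density set by the peak cutoff acts in both sets.

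**Figure D3:**
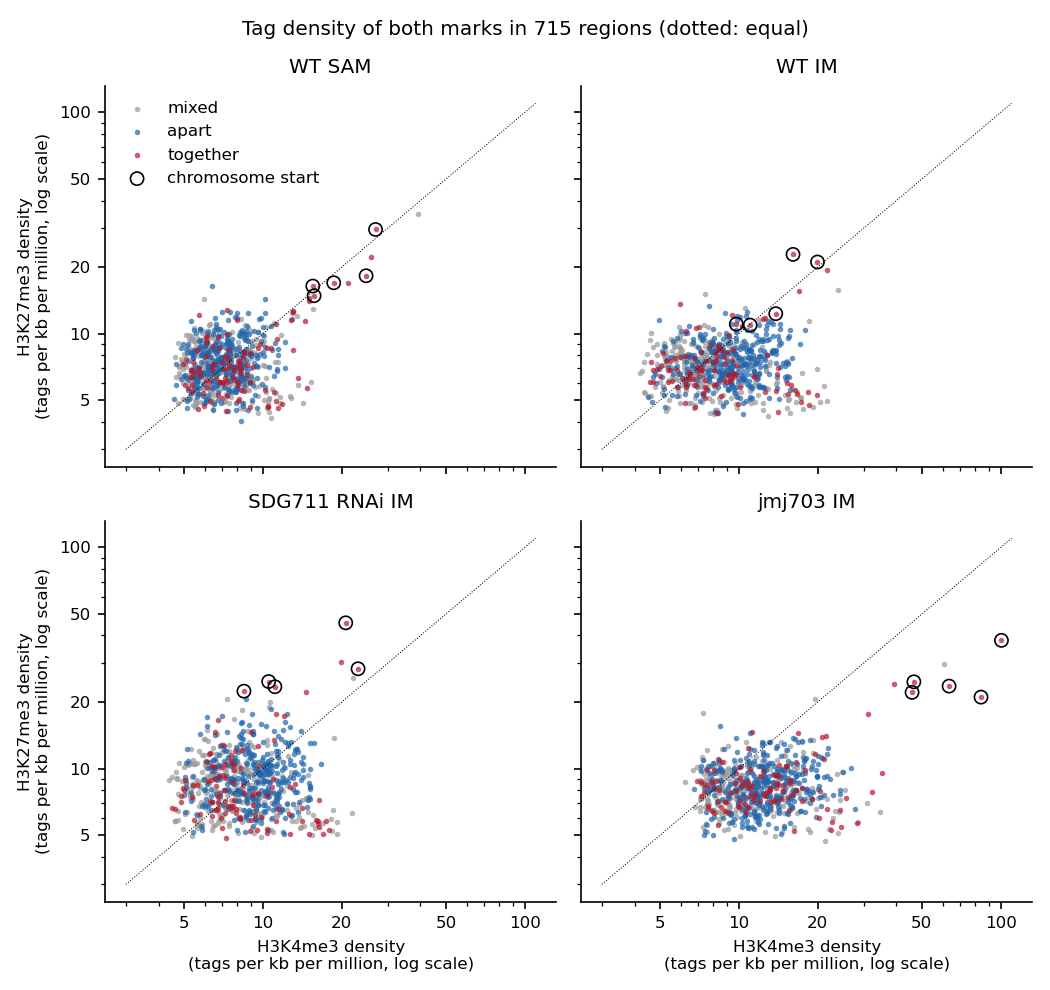
H3K4me3 density (horizontal) against H3K27me3 density (vertical) in the 715 regions, as tags per kb of peak scaled to library depth, on log scales, with 1 panel for each tissue and genotype. The circled chromosome starts have H3K4me3 densities of 45.9 to 101 in jmj703 IM, whereas in WT IM those of chromosomes 2 and 5 lie among the other regions; Pearson's r over all points is 0.26, 0.05, 0.03 and 0.25 in the order of the panels, and the dotted line marks equal densities.

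Of the dual-mark regions, 5 began within 3 kb of a chromosome start, and their tag numbers hardly followed library depth. They lay on chromosome 2 from 1 to 851, chromosome 4 from 854 to 2423, chromosome 5 from 1 to 837, chromosome 8 from 873 to 1869 and chromosome 10 from 841 to 1937, and all 5 were of the together layout. On chromosome 4, H3K4me3 held 498 tags in WT SAM and, among the IM samples, 546 in WT, 507 in SDG711 RNAi and 629 in jmj703, although the totals of these libraries differed 3.79-fold. H3K27me3 there held 650, 687, 673 and 779 tags. Over the 5 regions, the highest H3K4me3 tag number was a median of 1.29 times the lowest, against 3.91 times in the other 710 regions. Division by depth gave them jmj703 H3K4me3 densities of 45.9 to 101, where the median of dual-mark regions was 11.7. No control library was used for peak calling, and the part of sequence copy number in these 5 regions was not tested. The shares of regions past 1.5-fold and the correlations below that they alter are given with and without them. A H3K4me3 tag range of at most 2-fold was otherwise rare, with 9 of the 715 regions (1.26%) including the 5, and 98 of 17541 regions held by the 4 H3K4me3 lists (0.559%).

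Another region with very high densities of both marks lay on chromosome 2 from 28714028 to 28717156. H3K4me3 held 1148 tags in WT SAM and, in IM, 899 in WT, 818 in SDG711 RNAi and 616 in jmj703, and H3K27me3 held 1183, 1117, 736 and 790 tags. Its WT SAM densities, 39.1 for H3K4me3 and 34.7 for H3K27me3, were the highest of the 715 in that tissue.

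Setting WT IM against WT SAM asks how the marks change when the meristem turns from making leaves to making the panicle. Ratios of density were centred on the median over all regions held by both lists, since that median was 0.42 on the log2 scale for H3K4me3 and −0.09 for H3K27me3. After centring, H3K4me3 in dual-mark regions was lower in WT IM, with a median log2 ratio of −0.15 (quartiles −0.41 and 0.09), and was above 0 in 250 of 715. It was lower by 1.5-fold in 92 regions (12.9%, interval 10.6 to 15.5%), where the share over all 19552 regions was 4.99%, and higher in 3 (0.420%), where it was 0.604%. H3K27me3 was higher by 1.5-fold in 29 regions (4.06%), against 2.94% of 7489 regions, and lower in 14 (1.96%), against 3.24%. Without the chromosome starts, the share with lower H3K4me3 was 12.3%. Without centring, H3K4me3 was higher in 17.2% and lower in 1.12% of the dual-mark regions, and higher in 24.6% and lower in 0.240% of all regions. On either scale the dual-mark regions, taken as 1 set, lagged behind all regions held by both lists in H3K4me3. By medians, a smaller rise than in all regions was also seen outside them. Regions held by 7 lists had median H3K4me3 densities of 7.12 in WT SAM (n = 822) and 7.96 in WT IM (n = 896). Over all regions held by the list these medians were 7.20 and 9.65. The medians of WT SAM and WT IM cover partly different regions, and no ratio per region is given for the regions held by 7 lists.

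The lower H3K4me3 was found in the together and mixed layouts. The centred median was −0.35 in the 108 together regions, of which 33 were lower by 1.5-fold and none was higher, 0.00 in the 324 apart regions, with 13 lower, and −0.27 in the 283 mixed regions, with 46 lower. Without the chromosome starts, the together median was −0.33, with 28 of 103 lower. The layout uses the summit positions and not the density, but it comes from the same peaks. Without centring, the together and apart medians were 0.07 and 0.42. For H3K27me3 the density medians were 0.03 in together and 0.07 in apart regions. With summed tags, which also count peak length, they were −0.22 and 0.17, and those of H3K4me3 were −0.49 and −0.05.

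The share with lower H3K4me3 was farthest from that of all regions where H3K4me3 was strong in WT SAM, but the medians were not. Above the upper quartile of all regions by WT SAM H3K4me3 density, 1.84% of 4888 regions were lower by 1.5-fold in WT IM. Among the dual-mark regions above that quartile this was 39 of 148 (26.4%), or 34 of 143 without the chromosome starts. The medians there were −0.08 in dual-mark and 0.03 in all regions. By layout the number was 21 of 35 together regions, with a median of −0.67 (16 of 30 and −0.64 without the chromosome starts), 14 of 62 mixed regions and 4 of 51 apart regions. Below the lower quartile the shares were 8.03% of 249 dual-mark regions and 9.42% of all regions, and the medians were −0.19 and −0.10. In the groups between, the medians were −0.15 against 0.00 and −0.09 against 0.03. The grouping and the ratio share the WT SAM library.

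Among regions with at least 50 tags in both libraries, the centred H3K4me3 ratio was lowest on chromosome 11 from 12039479 to 12045226. H3K4me3 held 1018 tags over 5728 bp in WT SAM and 690 tags over 5656 bp in WT IM, in the deeper library. The ratio was 0.380, with an exact counting interval of 0.345 to 0.419. Next were a neighbouring pair on chromosome 5, from 29904894 to 29908514 with a ratio of 0.417 (0.370 to 0.469) and from 29886513 to 29892350 with a ratio of 0.449 (0.399 to 0.505). In the latter, H3K4me3 held 899 tags in WT SAM and, among the IM samples, 426 in WT, 347 in SDG711 RNAi and 195 in jmj703, and the summits of both marks lay at most 29 bp apart. In the opposite direction, chromosome 2 from 35138480 to 35145141 had 91 H3K4me3 tags over 1217 bp in WT SAM and 642 over 2801 bp in WT IM, a centred ratio of 1.70 (1.36 to 2.14). Its H3K27me3 log2 ratio was −0.44. The other regions with the highest ratios were chromosome 4 from 26382991 to 26388671, at 1.53, and chromosome 11 from 1233322 to 1236055, at 1.52.

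The H3K27me3 ratio of WT IM to WT SAM was highest on chromosome 2 from 7749830 to 7753645. H3K27me3 held 181 tags over 2041 bp in WT SAM and 613 over 2448 bp in WT IM, a centred ratio of 2.14 (1.81 to 2.54). On chromosome 1 from 28928386 to 28935739 it held 169 tags over 1672 bp and then 1495 over 5431 bp, so that the domain was also longer, at a ratio of 2.06. Chromosome 8 from 11756469 to 11761329 followed at 1.82. The lowest ratios were 0.426 on chromosome 2 from 2822830 to 2825513, with 203 tags in WT SAM and 132 in WT IM, 0.484 at the region on chromosome 2 from 28714028 to 28717156, followed by chromosome 1 from 21885995 to 21889840 at 0.509.

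**Figure D4:**
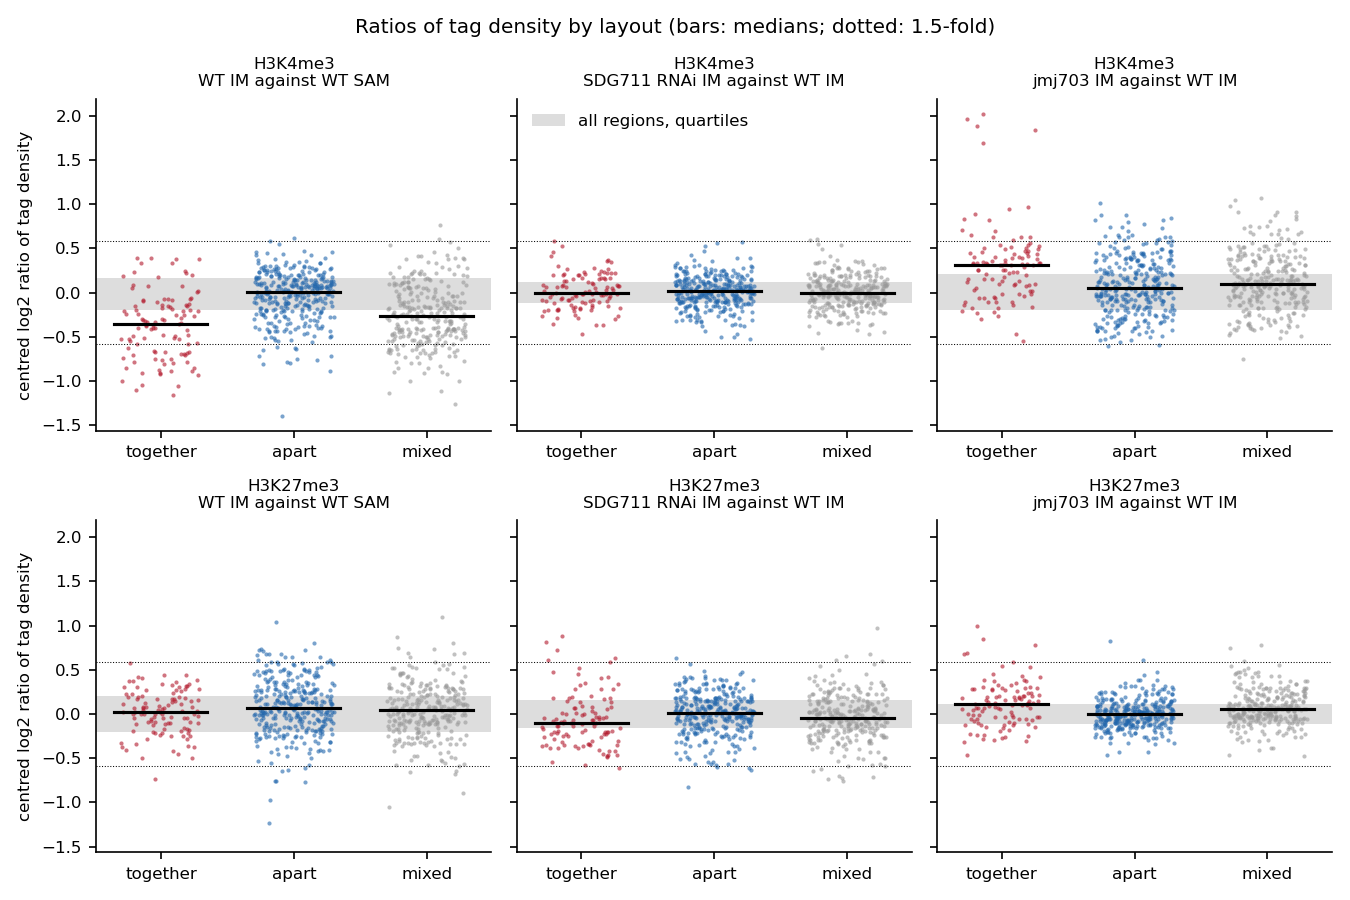
Centred log2 ratio of tag density (vertical axis) for each of the 715 regions by layout, with 1 panel for each mark and comparison; black bars are medians, the grey band spans the quartiles of all regions and dotted lines mark 1.5-fold. The together regions sit below the others for H3K4me3 in WT IM against WT SAM (median −0.35) and above them in jmj703 IM against WT IM (median 0.32), where 5 chromosome starts stand apart at the top.

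Setting SDG711 RNAi IM against WT IM asks how far both marks depend on this methyltransferase. Where both marks stayed above the cutoff, few regions were past 1.5-fold. H3K27me3 was higher by 1.5-fold in 12 dual-mark regions (1.68%), against 1.23% of 6526 regions, and lower in 14 (1.96%), against 1.27%. The centred median was −0.02 (quartiles −0.19 and 0.15). H3K4me3 was higher in 2 (0.280%), against 0.254% of 21275 regions, and lower in 1 (0.140%), against 0.094%. The medians over all regions before centring were 0.30 for H3K27me3 and −0.01 for H3K4me3 on the log2 scale. Without centring, H3K27me3 was higher in 11.3% of the dual-mark regions and lower in none, and higher in 11.2% of all regions. Without the chromosome starts, the centred share with higher H3K27me3 was 1.13%. These shares lie near the background, and the RNAi library was the shallower for H3K27me3. By layout, the centred H3K27me3 median was −0.10 in together regions (−0.11 without the chromosome starts), −0.04 in mixed and 0.02 in apart regions. With summed tags the together and apart medians were −0.17 and 0.00, and with the tag excess over background −0.16 and −0.01. These differences were not tested. The H3K27me3 covered length was shorter in SDG711 RNAi IM, with a median ratio of 0.923, close to the 0.930 of all regions.

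The lowest H3K27me3 ratio in SDG711 RNAi IM was 0.563 (0.471 to 0.671), on chromosome 11 from 21679289 to 21685112, with 568 tags over 2933 bp in WT IM and 166 over 2695 bp in SDG711 RNAi IM. On chromosome 10 from 19800752 to 19806145 H3K27me3 covered 3787 bp with 644 tags in WT IM and 917 bp with 53 tags in SDG711 RNAi IM, at a density ratio of 0.602, and on chromosome 3 from 28344416 to 28347207 the ratio was 0.606. The highest H3K27me3 ratio was 1.96 (1.72 to 2.24) on chromosome 12 from 5609950 to 5615753, with 812 tags over 5731 bp in WT IM and 312 over 1987 bp in SDG711 RNAi IM. A higher density there came with a shorter peak. The next 2 were the chromosome 2 and chromosome 4 starts, at 1.84 and 1.76. For H3K4me3, the highest ratios were 1.53 on chromosome 8 from 11756469 to 11761329, 1.51 on chromosome 1 from 11244965 to 11247091, followed by chromosome 8 from 14242788 to 14244397 at 1.496. The lowest were 0.648 on chromosome 8 from 28118335 to 28120449, 0.696 on chromosome 11 from 8597562 to 8603173, followed by chromosome 2 from 26614668 to 26621558 at 0.706.

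Setting jmj703 IM against WT IM asks which places gain H3K4me3 in the demethylase mutant. H3K4me3 was higher by 1.5-fold in 64 dual-mark regions (8.95%, interval 7.07 to 11.3%), against 4.71% of 19122 regions, and lower in 3 (0.420%), against 1.87%. The centred median was 0.11 (quartiles −0.10 and 0.36), after a shift of 0.36 over all regions. Without centring, H3K4me3 was higher in 37.9% of dual-mark regions and lower in none, and higher in 24.1% of all regions. H3K27me3 was higher in 10 (1.399%), against 0.288% of 8344 regions, and lower in none, against 0.0719%. Without the chromosome starts, the shares with higher H3K4me3 and higher H3K27me3 were 8.31% and 0.845%. Of the 10 with higher H3K27me3, 5 were of the together layout, or 1 without the chromosome starts.

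The share of regions with higher H3K4me3 in jmj703 IM varied with the strength of the mark in WT IM. Below the lower quartile of all regions by WT IM density, where 321 dual-mark regions lay, 13.4% of these and 13.5% of all regions were higher. Between that quartile and the median the shares were 6.29% of 175 and 2.91%, and above the upper quartile 5.41% of 111 and 0.858%. Together regions had a centred median of 0.32, with 17 of 108 higher, or 0.31 and 12 of 103 without the chromosome starts. Apart regions had 0.05, with 23 of 324, and mixed regions 0.10, with 24 of 283. The jmj703 H3K4me3 library was the shallowest, and the part of depth in this was not tested. This ratio and that of WT IM to WT SAM share the WT IM library.

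The 3 highest H3K4me3 ratios in jmj703 IM were those of the chromosome 10, 4 and 5 starts, at 4.06, 3.92 and 3.70. The lowest were 0.662 (0.496 to 0.870) on chromosome 10 from 23005050 to 23012302, with 520 tags in WT IM and 58 in jmj703 IM, 0.677 on chromosome 4 from 554978 to 563703, followed by chromosome 8 from 8946135 to 8947763 at 0.686. For H3K27me3, the highest were the chromosome 5 and 2 starts, at 2.00 and 1.81, and chromosome 2 from 2822830 to 2825513, at 1.78 (1.41 to 2.25), which also had the lowest ratio of WT IM to WT SAM. Both ratios share the WT IM library. Its H3K27me3 density was 11.1 in WT SAM and, in IM, 4.45 in WT, 8.09 in SDG711 RNAi and 8.85 in jmj703, so it was lowest in WT IM. The lowest H3K27me3 ratios were 0.721 on chromosome 12 from 404726 to 408074, 0.724 on chromosome 9 from 9111873 to 9118788, followed by chromosome 8 from 13602921 to 13604573 at 0.727.

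**Figure D5:**
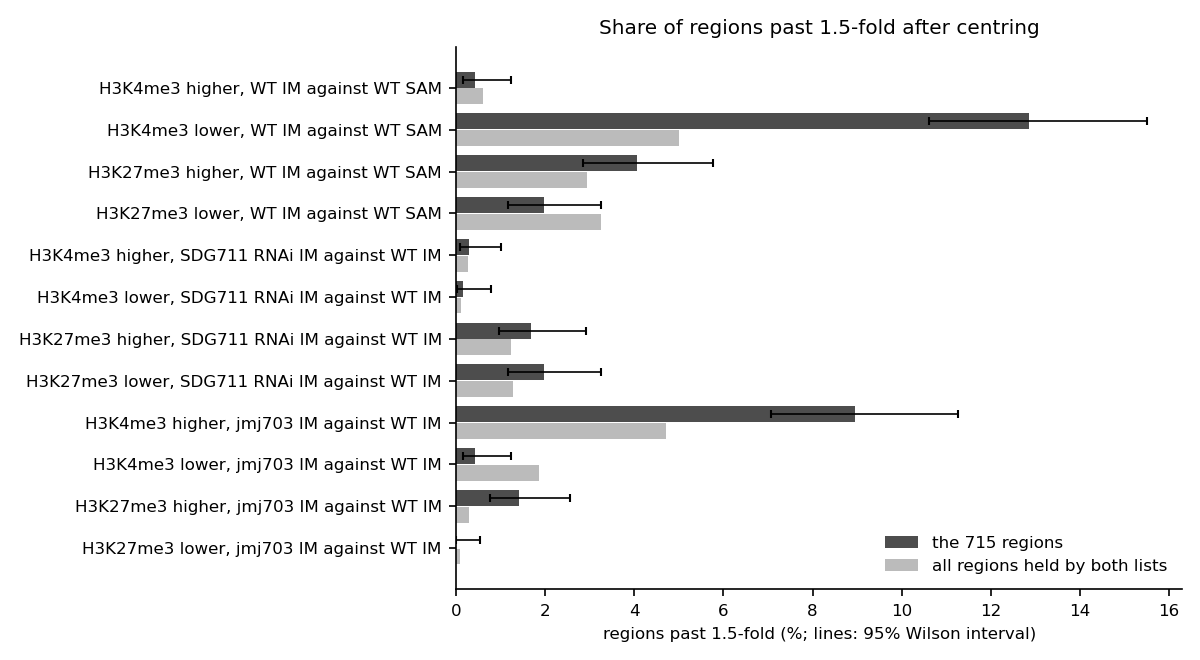
Share of regions past 1.5-fold after centring (horizontal axis, %) for each mark, direction and comparison; dark bars are the 715 dual-mark regions with 95% Wilson intervals and light bars are all regions held by both lists. The dark bar is longest for lower H3K4me3 in WT IM than in WT SAM (12.9% against 4.99%) and for higher H3K4me3 in jmj703 IM (8.95% against 4.71%).

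Few dual-mark regions had both marks past 1.5-fold, as did few of all regions. From WT SAM to WT IM, no region had higher H3K4me3 with lower H3K27me3, either among the 715 or among all 1623 regions held by the 4 lists. Lower H3K4me3 with higher H3K27me3 was found in 4 dual-mark regions (0.559%), against 7 of the 1623 (0.431%), and both marks were lower in 3 (0.420%), against 19 (1.17%). The counts are small, and their differences were not tested. In SDG711 RNAi IM no region of either set had a joint change in any direction. In jmj703 IM both marks were higher in 7 dual-mark regions (0.979%), or 3 without the chromosome starts (0.423%), against 8 of 1852 regions (0.432%), which include the 7. Across the 715 regions, Pearson's r between the log2 ratios of both marks was 0.13 for WT IM against WT SAM, −0.0048 for SDG711 RNAi against WT IM and 0.13 for jmj703 against WT IM. Without the chromosome starts these were 0.12, 0.0054 and 0.05. Over all regions held by the 4 lists of a comparison it was 0.13 (n = 1623), −0.02 (n = 1363) and 0.11 (n = 1852). From WT SAM to WT IM it was 0.42 in together regions, or 0.40 without the chromosome starts, and 0.00 in apart regions. The other comparisons differed. For SDG711 RNAi IM it was −0.21 in together regions, or −0.19 without the chromosome starts, and 0.03 in apart regions. For jmj703 IM it was 0.31, or 0.02 without the chromosome starts, and −0.04 in apart regions. Of the 715 regions, 520 (72.7%) were past 1.5-fold in none of the 6 ratios and 160 (22.4%) in 1 of them.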

How the data were processed

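The 8 ChIP-seq libraries were 1 H3K4me3 and 1 H3K27me3 library each from WT SAM, WT IM, SDG711 RNAi IM and jmj703 IM, grouped by their titles. Per the labels' protocols, chromatin was fixed in 1% formaldehyde and sheared to 200 to 750 bp. Per the file headers, peaks were called in each library separately with MACS 1.4.0rc2, with no control library, a p cutoff of 1e-05, a genome size of 401 Mb and a regional window of 10 kb. Alignments carried names stating that duplicates were removed, and 2 or 3 tags at most were kept at a position, per the file headers. Bowtie2 2.1.0 and Trimmomatic 0.32 are listed in the submitters' processing notes without a role, and the aligner's settings and the build are not given in the sources used here.

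The tag count of a peak is the raw number deposited by the authors. The deposited score is −10 times the log10 of the peak's p. The deposited fold enrichment is a ratio to the local background of the same library, so local copies of a sequence can raise it. Fold and score were used only to rank, describe or filter peaks within a list.

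Peaks were joined with pandas 2.3.3 and numpy 2.4.6 in Python 3.11.15, and starts below 1 were set to 1. Summit distances used the peak with most tags of each mark. Densities sum the tags and lengths of a list's peaks in a region, so they move with how much was called. Ratios were centred on the median over all regions held by both lists, and 1.5-fold was used as a limit of size. Depths of 4869161 to 22887617 tags set the precision. Shares have 95% Wilson intervals and single ratios exact binomial intervals (scipy 1.17.1), which cover counting error only. With 1 library per group nothing was tested. Joining was checked on the deposited peaks by a second method. Ratios were checked on redrawn tags with planted changes, with peak lengths set equal in both libraries, so changes in called length were not covered.

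The dual-mark regions, and what was described about them, were chosen with earlier results of these data known. Regions were named by rule: the 5 with the longest run under all 8 lists, the 5 whose weakest percentile by p was highest, the 3 highest and lowest ratios for each mark and comparison with at least 50 tags in both libraries, the 3 smallest and largest mean summit distances, the 3 weakest members, the best region missing each list and the 3 longest. Some of these appear only in counts, and the chromosome starts were singled out after their values were seen. The gene table at hand is on another or unknown build and was not used.

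Alternatives were a p of at most 1e-10, joining at 100 bp of overlap, only regions with 1 peak of each list, no centring and summed tags scaled to library depth. Chosen after seeing the data were the tag excess over background, only members with a base under all 8 lists, and members without chromosome starts, also at the stricter p.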

Additional observations from a re-analysis of the deposited data

How the results depend on the processing

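With peaks of p at most 1e-10, 285 regions were held by all 8 lists, 49.1% had a base under all 8 and 51.6% had overlapping marks in all 4 tissues and genotypes. The median summit distances were then 1077 bp in WT SAM and, among the IM samples, 1222 bp in WT, 1362 bp in SDG711 RNAi and 1131 bp in jmj703. H3K4me3 was higher in WT IM than in WT SAM in 0% and in SDG711 RNAi IM than in WT IM in 1.05%, with 0% lower. The correlations of both marks' ratios were 0.27 for WT IM against WT SAM, −0.088 for SDG711 RNAi IM and 0.29 for jmj703 IM, and 0.25, −0.071 and 0.12 without chromosome starts. With peaks joined at 100 bp of overlap, 661 regions were found, 59.9% had a base under all 8 lists and 65.2% had overlapping marks throughout. In regions with 1 peak of each list, 59.1% had such a base, and the distances were 794.5, 956 and 682 bp in IM of WT, SDG711 RNAi and jmj703.

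Without centring, the shares of regions past 1.5-fold, higher and lower, were 17.2% and 1.12% for H3K4me3 and 2.38% and 3.92% for H3K27me3 in WT IM against WT SAM. For SDG711 RNAi IM they were 11.3% and 0% for H3K27me3. For jmj703 IM they were 37.9% and 0% for H3K4me3, and H3K27me3 was higher in 4.48%. Over all regions H3K27me3 was higher in 1.46% and lower in 5.80% in WT IM against WT SAM, and higher in 1.53% in jmj703 IM. With summed tags scaled to depth, which also count peak length, WT IM against WT SAM gave 3.78% and 27.7% for H3K4me3 and 23.4% and 14.3% for H3K27me3. SDG711 RNAi IM gave 3.22% and 4.06%, then 8.39% and 17.5%. jmj703 IM gave 17.3% and 9.51%, then 9.09% and 6.29%. Over all regions, summed tags gave 4.16% and 10.2%, then 22.1% and 20.8%, for WT IM against WT SAM. They gave 2.02% and 0.945%, then 10.1% and 16.1%, for SDG711 RNAi IM. For jmj703 IM they gave 8.78% and 9.24%, then 6.95% and 9.19%. The share with lower H3K27me3 in SDG711 RNAi IM thus lay near that of all regions. With the excess over background, WT IM against WT SAM gave 2.94% and 17.6% for H3K4me3 and 16.2% and 11.05% for H3K27me3. SDG711 RNAi IM gave 3.08% and 2.10%, then 6.85% and 10.8%. jmj703 IM gave 16.9% and 3.08%, then 6.99% and 3.50%. Over all regions, the excess gave 3.69% and 10.2%, then 11.8% and 15.3%, for WT IM against WT SAM. It gave 3.29% and 2.07%, then 8.63% and 8.61%, for SDG711 RNAi IM. For jmj703 IM it gave 11.2% and 5.46%, then 5.42% and 3.86%. In regions with a base under all 8 lists, 20.5% had lower H3K4me3 and 2.78% higher H3K27me3 in WT IM than in WT SAM. Without chromosome starts the jmj703 IM correlation was 0.047. The causes were not tested. Under each of these scales, together regions had a lower H3K4me3 median than apart regions in WT IM against WT SAM. For H3K27me3 the medians in together and apart regions were −0.22 and 0.17 with summed tags and 0.18 and 0.15 with the excess, so their order depended on the scale.

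No paired analysis was possible because each ChIP group had 1 library and the numbered RNA samples were not analysed. One library per group leaves the spread between preparations unknown. Depth differed 3.79-fold for H3K4me3 and 2.18-fold for H3K27me3, which sets how weak a peak can be and still be listed, and so which regions are members.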
